A study of Mus musculus with 18 samples.

Results

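Mitosis genes were followed in whole bone marrow of female C3H mice after gamma irradiation. The list holds 37 genes that encode cyclins and kinases of mitotic entry, the spindle checkpoint and anaphase machinery, spindle motors and assembly factors, and proteins of the centromere, the condensed chromosome and the cleavage furrow. Of these, 36 had a probe on the Agilent 1-colour mouse array, among 17178 genes with a probe, and all 36 are among the 11884 genes that were tested. Incenp, a subunit of the chromosomal passenger complex, had no probe matched to its RefSeq accession. Cdc25c, a phosphatase, is counted throughout in the role group of cyclins and mitotic kinases. The mice were 1 week or 8 weeks old and were left unirradiated or received gamma rays (2 Gy), with marrow taken at 6 h or at 24 h. There are 6 such groups of 3 arrays, and the design text counts 3 mice per condition. All mice were of the same strain and sex, and no group carries a transgene or a deletion per the labels. The RNA is that of the whole tissue, so fewer cells of a cycling type and less RNA per cell cannot be told apart in any comparison here.

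The genes are background to a well-known sequence of events. Cyclin B with Cdk1 drives a cell from G2 into mitosis once the Cdc25 phosphatases remove an inhibitory phosphate that Wee1 places there, and ionising radiation delays that step through the ATM, ATR, Chek1 and Chek2 kinases. In mitosis the anaphase-promoting complex, with its activator Cdc20 and its E2 enzyme Ube2c, marks cyclin B and securin (Pttg1) for degradation, which frees separase (Espl1) to cut cohesin. The transcripts of these genes accumulate from S phase to mitosis. MuvB complexes bind their promoters, repressing them in the DREAM complex with the p130 protein and activating them with Mybl2 and Foxm1. Bone marrow holds rapidly dividing erythroid, granulocytic and B-cell precursors beside mature cells that no longer divide.

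The promoters of mitosis genes often carry a CHR element (cell cycle genes homology region, the word TTTGAA, or its variant TTCGAA), to which MuvB binds, and CCAAT boxes (the word CCAAT), to which NF-Y binds. RefSeq promoter windows (build GRCm38.p6, 250 bases before to 50 after the transcription start) matched 31 of the 36 genes by symbol, and Ccna2, Cdc25c, Aurkb, Kif20a and Tpx2 had none. On either strand, 24 of the 31 genes (77.4%) held a CHR word, against 21.7% of 27025 genes with such a window. CCAAT was present in 25 of them (80.6%) against 41.1% of all genes, and both words together in 22 (71%) against 8.61%. The stretches of 150 bases before the start are shown for 5 genes on which the results turn, 5′ to 3′ on the strand of the gene, with CHR words and CCAAT boxes of either strand in capitals (TTCAAA and ATTGG are their reverse complements). They lie at chr2:164769779-164769928 for Ube2c (plus strand), chr4:118437344-118437493 for Cdc20 (minus), chr10:69352913-69353062 for Cdk1 (minus), chr15:102296143-102296292 for Espl1 (plus) and chr13:100786487-100786636 for Ccnb1 (minus).
Ube2c: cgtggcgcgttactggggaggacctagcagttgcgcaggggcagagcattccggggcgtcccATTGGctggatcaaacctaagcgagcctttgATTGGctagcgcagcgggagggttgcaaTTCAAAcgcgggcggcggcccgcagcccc
Cdc20: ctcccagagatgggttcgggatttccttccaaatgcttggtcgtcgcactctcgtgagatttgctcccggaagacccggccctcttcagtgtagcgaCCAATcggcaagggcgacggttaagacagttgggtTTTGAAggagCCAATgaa
Cdk1: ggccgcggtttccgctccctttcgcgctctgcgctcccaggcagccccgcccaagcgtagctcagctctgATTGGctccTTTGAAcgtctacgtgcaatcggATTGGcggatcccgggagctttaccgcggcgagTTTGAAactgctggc
Espl1: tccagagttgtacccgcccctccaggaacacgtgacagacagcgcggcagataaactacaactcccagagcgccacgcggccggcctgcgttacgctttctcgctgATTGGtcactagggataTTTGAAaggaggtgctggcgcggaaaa
Ccnb1: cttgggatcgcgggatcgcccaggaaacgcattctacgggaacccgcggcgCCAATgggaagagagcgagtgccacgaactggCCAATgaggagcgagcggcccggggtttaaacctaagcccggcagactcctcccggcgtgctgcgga
The CHR word begins 29 bases before the start in Ube2c, 18 in Cdc20, 27 in Espl1, and 71 and 15 in Cdk1. Within the stretches shown, CCAAT boxes begin 88 and 57 bases before the start in Ube2c and 53 and 8 in Cdc20. In Cdk1 they begin 80 and 48 bases before it, and in Espl1 44. Further upstream in the windows, boxes begin 228, 186, 183 and 155 bases before the start in Ube2c and 208 in Cdk1. Ccnb1 has CCAAT boxes 99 and 67 bases before the start and neither CHR word in its window. No other form of either element was searched for. These matches describe letters in a window and were not tested against the array data.

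Values per array are log2 signal minus the 75th percentile of that array's probes, so that 0 lies at that percentile, and they are compared only within a gene. A difference is that of 2 group means on this log2 scale, given ± its standard error from 1 limma fit over all 18 arrays (n = 3 per group), with p-values adjusted by Benjamini and Hochberg over the 11884 genes, and a gene is called under 0.05. All 36 genes were well above background on all 18 arrays, and none was saturated on any. The defining transcripts of erythroid cells, granulocytes, B-cell precursors and macrophages (those with a probe) exceeded background on each of the 18 arrays, except Pax5 (7 arrays) and Rag2 (0 arrays). Within groups, deviations of the 36 genes from their group means ran together (median r = 0.44 over 630 pairs of genes on 18 arrays, which share hybridisation and scaling). Replicate 2 of the 1-week controls stood apart in muscle and cartilage genes, with a mean over 9 skeletal muscle genes of 5.18 against -1.41 and -0.64 in the other 1-week controls. Replicate 1 of the 8-week mice at 6 h stood below its group in the mean of the 36 mitosis genes (2.45, against 2.60 and 2.77) and of 13 erythroid genes (4.38, against 4.75 and 4.84). The number of called mitosis genes in each comparison that uses these 2 arrays is given with and without them. Other counts (shared sets, groups without overlap, cell type markers and further gene lists) are given with them only.

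**Figure D1:**
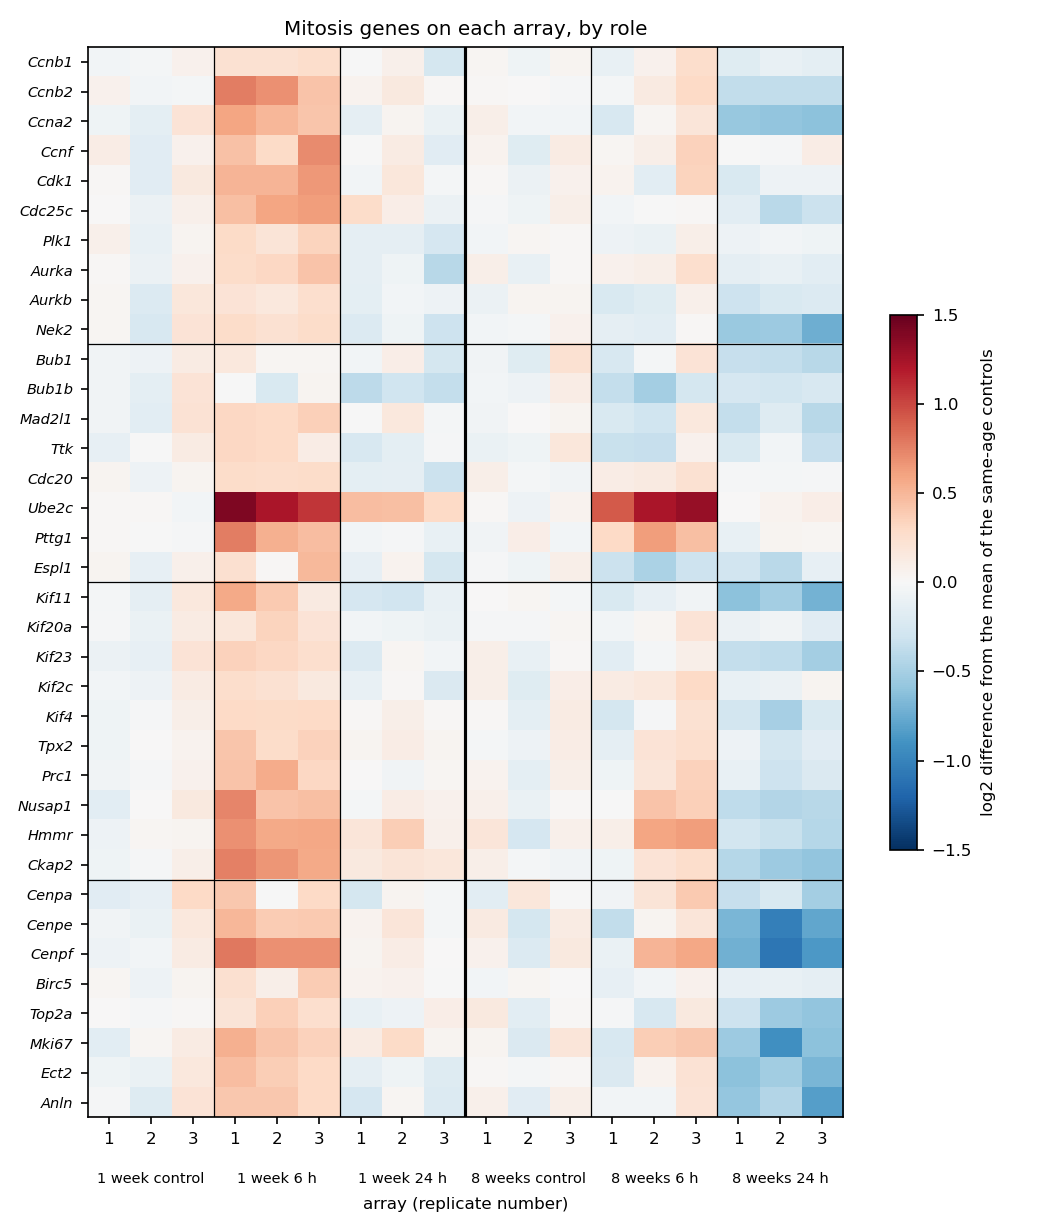
Each of the 36 mitosis genes (rows, by role, top to bottom: cyclins and mitotic kinases; spindle checkpoint and anaphase; kinesins and spindle assembly; centromere, chromosome and cleavage) on each of the 18 arrays (columns), as log2 difference from the mean of the controls of the same age. Nearly all genes are higher on the 1-week arrays at 6 h, Ube2c stands out at 6 h at both ages, and the 8-week arrays at 24 h are lower for most genes.

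At 6 h after irradiation of 1-week mice, 29 of the 36 mitosis genes were called higher and 0 lower by limma, with 32 and 0 at an unadjusted p under 0.05. Among all genes tested 51.4% were called, 25.4% higher and 26% lower. The median of the 36 differences was 0.34 against 0.01 over all genes, and the arrays of the 2 groups did not overlap for 29 genes (all higher), against 27.5% of all genes in that direction. The rise took in 9 of 10 cyclins and mitotic kinases, 4 of 8 checkpoint and anaphase genes, 9 of 10 kinesins and spindle factors and 7 of 8 genes of centromere, chromosome and cleavage.

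Ube2c, the E2 enzyme of the anaphase-promoting complex, changed most. It read 5.16, 5.16 and 5.10 in the 1-week controls, 6.54, 6.36 and 6.21 at 6 h and 5.60, 5.59 and 5.44 at 24 h. In 8-week mice it read 4.71, 4.61 and 4.74 in controls, 5.61, 5.91 and 5.99 at 6 h and 4.69, 4.74 and 4.79 at 24 h. At 6 h every array lay above every control at both ages, and at 24 h this held at 1 week only. The 6 h difference was 1.23 ± 0.09 at 1 week (2.35-fold, adjusted p = 2.8e-08) and 1.15 ± 0.09 at 8 weeks (2.22-fold, adjusted p = 7e-08).

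Cyclin B2 (Ccnb2), a partner of Cdk1, read 6.44, 6.34 and 6.35 in the 1-week controls, 7.14, 7.06 and 6.80 at 6 h and 6.43, 6.52 and 6.40 at 24 h. In 8-week mice it read 6.07, 6.06 and 6.04, then 6.03, 6.19 and 6.35 at 6 h, and 5.69 on all 3 arrays at 24 h. The 1-week arrays at 6 h stood above all others, while the 8-week arrays at 6 h straddled their controls and those at 24 h lay below them. Ccnb2 rose by 0.62 ± 0.08 at 6 h in 1-week mice (1.54-fold, adjusted p = 8.01e-06).

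Cdc25c, a phosphatase that activates Cdk1, read -0.08, -0.18 and -0.01 in the 1-week controls, 0.36, 0.50 and 0.54 at 6 h and 0.18, 0.01 and -0.18 at 24 h. Its 8-week values were -0.66, -0.70 and -0.55 in controls, -0.68, -0.64 and -0.62 at 6 h, and -0.80, -1.04 and -0.96 at 24 h. The 1-week rise (0.56 ± 0.09, adjusted p = 7.78e-05) left no overlap with controls, while the 8-week arrays at 6 h lay within the range of theirs. Cyclin A2 (Ccna2), which acts in S phase and G2, read 5.23, 5.14 and 5.50 in the 1-week controls, 5.88, 5.79 and 5.71 at 6 h and 5.16, 5.33 and 5.19 at 24 h. In 8-week mice Ccna2 read 4.96, 4.83 and 4.84 in controls, 4.64, 4.91 and 5.06 at 6 h and 4.31, 4.28 and 4.26 at 24 h. It thus followed Ccnb2 in which groups were separate from their controls.

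Cyclin B1 (Ccnb1), the main partner of Cdk1 at mitotic entry, read 3.03, 3.04 and 3.13 in the 1-week controls, 3.30, 3.29 and 3.33 at 6 h and 3.06, 3.14 and 2.80 at 24 h. In 8-week mice it read 2.48, 2.38 and 2.49 in controls, 2.34, 2.52 and 2.71 at 6 h and 2.27, 2.34 and 2.30 at 24 h. The 1-week arrays at 6 h were all above their controls and close together, by a smaller step than for Ccnb2 (0.24 ± 0.09, adjusted p = 0.0299). Cdk1, the kinase itself, had the smallest F statistic of its role group over the 6 groups. It read 3.15, 2.96 and 3.27 in the 1-week controls, 3.64, 3.64 and 3.78 at 6 h and 3.09, 3.30 and 3.10 at 24 h. The 8-week arrays read 2.79, 2.69 and 2.84, then 2.83, 2.61 and 3.11, and then 2.55, 2.70 and 2.70. Only the 1-week 6 h arrays stood apart from their controls (0.56 ± 0.11, adjusted p = 0.000297), and the irradiated 8-week groups overlapped theirs. Aurkb, the kinase of the passenger complex, was the member of this role group that was not called (0.21 ± 0.09, adjusted p = 0.0618).

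Among checkpoint and anaphase genes, securin (Pttg1), the inhibitor of separase, rose by 0.59 ± 0.08 (adjusted p = 2.33e-05). Cdc20, which activates the anaphase-promoting complex, read 6.18, 6.06 and 6.18 in the 1-week controls, 6.41, 6.40 and 6.41 at 6 h and 5.99, 6.01 and 5.82 at 24 h. Its 1-week arrays were thus above controls at 6 h and below them at 24 h, with no overlap either time. The 8-week values of Cdc20 were 5.81, 5.69 and 5.67 in controls, 5.84, 5.86 and 5.95 at 6 h and 5.71, 5.69 and 5.71 at 24 h. There the 6 h arrays were above all controls, and those at 24 h lay among them.

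Separase (Espl1) did not follow Ube2c. It read 2.03, 1.86 and 2.06 in the 1-week controls, 2.22, 2.00 and 2.47 at 6 h and 1.86, 2.04 and 1.72 at 24 h, with overlap throughout (0.25 ± 0.11 at 6 h, adjusted p = 0.0649). At 8 weeks it read 1.43, 1.38 and 1.54 in controls, 1.13, 0.97 and 1.14 at 6 h and 1.16, 1.05 and 1.33 at 24 h. Both irradiated 8-week groups lay wholly below their controls. Bub1, a checkpoint kinase at the kinetochore, had the smallest F of this role group. It read 1.18, 1.16 and 1.36 in the 1-week controls, 1.39, 1.26 and 1.26 at 6 h and 1.19, 1.33 and 0.97 at 24 h. Its 8-week values were 1.15, 1.02 and 1.43 in controls, 0.96, 1.17 and 1.40 at 6 h and 0.86, 0.84 and 0.78 at 24 h, so that only the last group was separate from its controls. At 1 week and 6 h Bub1 differed by 0.07 ± 0.12 (adjusted p = 0.632) and its relative Bub1b by -0.06 ± 0.09 (adjusted p = 0.605).

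Of the spindle genes, Ckap2, which binds spindle microtubules, changed most at 1 week and 6 h (0.66 ± 0.08, 1.58-fold, adjusted p = 6.38e-06). It read 0.10, 0.15 and 0.25 in the 1-week controls, 0.92, 0.83 and 0.73 at 6 h and 0.31, 0.36 and 0.34 at 24 h. The 8-week arrays read 0.18, 0.07 and 0.04 in controls, 0.03, 0.30 and 0.36 at 6 h and -0.33, -0.45 and -0.49 at 24 h. Its 24 h arrays thus lay above the controls at 1 week and below them at 8 weeks. Kif20a, a kinesin of the central spindle, read 3.50, 3.42 and 3.64 in the 1-week controls, 3.69, 3.85 and 3.73 at 6 h and 3.48, 3.45 and 3.42 at 24 h. In 8-week mice Kif20a read 3.11, 3.11 and 3.15, then 3.08, 3.15 and 3.33, then 3.03, 3.07 and 2.95. The 1-week arrays at 6 h lay above their controls, and all 8-week arrays lay below all 1-week arrays.

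Kif4, the chromokinesin, read 3.12, 3.17 and 3.27 in the 1-week controls, 3.49, 3.47 and 3.49 at 6 h and 3.20, 3.28 and 3.20 at 24 h. Its 8-week values were 2.81, 2.64 and 2.91 in controls, 2.52, 2.77 and 3.01 at 6 h and 2.51, 2.29 and 2.56 at 24 h. The 8-week 6 h arrays reached both below and above their controls. Kif2c, which takes apart microtubule ends at the centromere, had the smallest F of its role group and was not called at 1 week and 6 h (0.21 ± 0.09, adjusted p = 0.0536), although its arrays did not overlap. It read -0.08, -0.11 and 0.09 in the 1-week controls, 0.23, 0.20 and 0.11 at 6 h and -0.14, -0.02 and -0.25 at 24 h. In 8-week mice it read -0.33, -0.60 and -0.31, then -0.29, -0.26 and -0.11, then -0.53, -0.50 and -0.37. There the 6 h arrays lay just above all controls (0.19 ± 0.09, adjusted p = 0.084) and the 24 h arrays overlapped them. The remaining called spindle genes at 1 week and 6 h ran from Kif20a (0.24) to Hmmr (0.61), the hyaluronan-mediated motility receptor, which acts in spindle assembly.

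Cenpf, an outer kinetochore protein, had the largest rise of the last role group (0.72 ± 0.14, 1.65-fold, adjusted p = 0.000434). It read 3.51, 3.54 and 3.71 in the 1-week controls, 4.38, 4.27 and 4.27 at 6 h and 3.63, 3.70 and 3.59 at 24 h. The 8-week arrays read 3.43, 3.16 and 3.52 in controls, 3.27, 3.88 and 3.95 at 6 h and 2.65, 2.29 and 2.51 at 24 h. At 8 weeks and 6 h replicate 1 fell among the controls while the other arrays lay above them, and at 24 h all lay far below.

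Survivin (Birc5), of the passenger complex, read 7.15, 7.04 and 7.16 in the 1-week controls, 7.36, 7.21 and 7.50 at 6 h and 7.17, 7.18 and 7.11 at 24 h. In 8-week mice it read 6.67, 6.74 and 6.72, then 6.59, 6.67 and 6.77, then 6.59, 6.60 and 6.58. All 8-week arrays lay below all 1-week arrays. Ect2, which activates RhoA at the cleavage furrow, read 2.29, 2.25 and 2.51 in the 1-week controls, 2.81, 2.72 and 2.65 at 6 h and 2.22, 2.28 and 2.16 at 24 h. Its 8-week controls, at 2.36, 2.32 and 2.36, lay within the range of the 1-week ones, and the values were 2.13, 2.40 and 2.56 at 6 h and 1.73, 1.83 and 1.66 at 24 h. Ect2 was thus separate from its controls at 1 week and 6 h, upward, and at 8 weeks and 24 h, downward. Cenpa, the centromeric histone, had the smallest F of this group, with 2.23, 2.28 and 2.70 in the 1-week controls, 2.81, 2.40 and 2.70 at 6 h and 2.14, 2.45 and 2.37 at 24 h. It read 1.98, 2.31 and 2.14 in the 8-week controls, 2.09, 2.34 and 2.54 at 6 h and 1.80, 1.92 and 1.63 at 24 h. Only the 8-week 24 h arrays of Cenpa were separate from their controls, and at 1 week and 6 h it was not called (0.24 ± 0.14, adjusted p = 0.178).

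**Figure D2:**
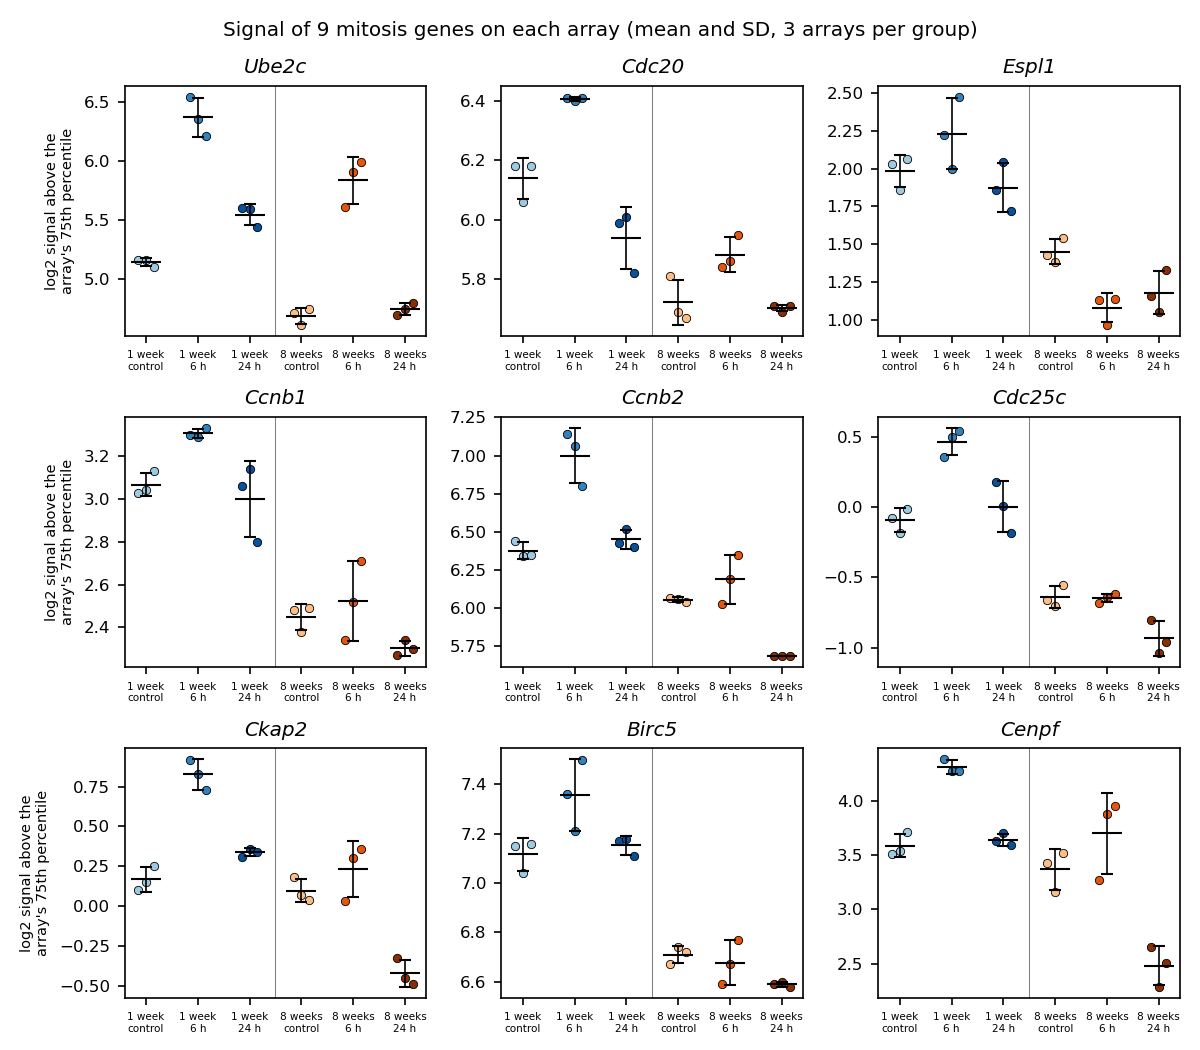
Log2 signal above the array's 75th percentile (vertical axis, its range differs by gene) for 9 mitosis genes in the 6 groups, 1 point per array, with the group mean (bar) and SD (whiskers, n = 3). Ube2c is raised at 6 h at both ages, Ccnb2, Cdc25c and Ckap2 are raised at 6 h at 1 week, and Cenpf, Ccnb2 and Ckap2 are lowest in 8-week mice at 24 h.

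Of the 29 calls at 1 week and 6 h, 21 held when each of the 6 arrays was left out in turn, and Ccnb1, Nek2, Mad2l1, Kif4, Cenpe, Top2a, Mki67 and Anln lost theirs in at least 1 such fit. Without control replicate 2, which stood apart in muscle genes, 24 were called. With normexp background correction the median standard error of the 36 genes was 0.23 in place of 0.09, and 3 were called (Ube2c, Cdc25c and Ckap2). On the 1 slide that holds an array of each group all 36 differences were positive (median 0.44, against -0.01 over all genes). This sets 1 array against 1 array, both of them part of the comparison above. Erythroid markers rose in the same mice, 11 of 13 called higher and 0 lower (12 and 0 unadjusted; median 0.65), with a level summed over the list, in multiples of the array's 75th percentile, of 907 to 945 in controls and 1390 to 1550 at 6 h. Late neutrophil markers rose in 12 of 12 (1130 to 1290 against 1640 to 2010). Early granulocyte markers fell in 5 of 6 (327 to 372 against 257 to 284), macrophage markers in 7 of 10 (29.3 to 32.9 against 21.4 to 25.4) and B-cell precursor markers in 11 of 12 (320 to 363 against 120 to 131). Of 8 stem and progenitor markers 4 were called lower and 0 higher. The part of these cell types in the rise of the mitosis genes was not tested.

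In 8-week mice at 6 h, 4 of the 36 genes were called higher, namely Ube2c, Pttg1, Hmmr and Cdc20, and 2 lower, Bub1b and Espl1. All but Hmmr belong to the spindle checkpoint and anaphase genes. Among all genes tested 45.8% were called, 23.4% higher and 22.4% lower. The median of the 36 was 0.05 against 0.02 over all genes, and groups did not overlap for 4 genes upward and 3 downward, against 28.3% and 27.1% of all genes.

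Pttg1 read 5.59, 5.74 and 5.60 in the 8-week controls and 5.94, 6.27 and 6.10 at 6 h, a difference of 0.46 ± 0.08 (1.38-fold, adjusted p = 0.000381). Bub1b, the checkpoint protein BubR1, read 1.63, 1.60 and 1.79 in controls and 1.32, 1.16 and 1.41 at 6 h, a fall of 0.38 ± 0.09 on the log2 scale (adjusted p = 0.0032). For both genes no array overlapped between groups. Espl1 fell by 0.37 ± 0.11 (adjusted p = 0.0106) and Cdc20 rose by 0.17 ± 0.06 (adjusted p = 0.0257). Hmmr rose by 0.43 ± 0.13 (adjusted p = 0.0129), with values of -0.84, -1.27 and -0.94 in controls and -0.93, -0.43 and -0.39 at 6 h, where replicate 1 overlapped the controls.

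No gene of the role group of cyclins and mitotic kinases was called at 8 weeks and 6 h (0 of 10 in limma, and 0 at an unadjusted p under 0.05). Their differences ran from -0.11 (Aurkb, adjusted p = 0.309) to 0.15 (Ccnf, adjusted p = 0.291), with Ccnb2 at 0.14 ± 0.08 (adjusted p = 0.174), Cdk1 at 0.08, Ccnb1 at 0.07 and Ccna2 at -0.01 ± 0.10 (adjusted p = 0.967). Kif4 differed by -0.02 ± 0.10 (adjusted p = 0.895). Of the genes of centromere, chromosome and cleavage 0 of 8 were called (1 at an unadjusted p under 0.05). Their differences ran from -0.05 (Cenpe) to 0.33 (Cenpf, ± 0.14, adjusted p = 0.0651), and Ect2 had the largest p (0.02 ± 0.09, adjusted p = 0.892).

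This set of calls depended on single arrays. Without replicate 1 at 6 h, 13 genes were called (11 higher, 2 lower), without replicate 3 at 6 h 6 (2 higher, 4 lower), without control replicate 2 4 (2 higher, 2 lower) and without replicate 2 at 6 h 4 (3 higher, 1 lower). Ube2c, Pttg1 and Bub1b kept their calls in every such fit, while Cdc20, Espl1 and Hmmr did not. With normexp correction 1 was called (Ube2c). On the slide shared by both groups, which holds replicate 3 at 6 h, 32 of 36 differences were positive (median 0.20, against 0.04 over all genes). This is 1 array against 1 array. Erythroid markers were called higher in 9 of 13 and lower in 0 (9 and 0 unadjusted). Their summed level was 730 to 743 in controls and 877 to 1050 at 6 h. B-cell precursor markers were lower in 12 of 12 (353 to 386 and 121 to 148). Macrophage markers were higher in 9 of 10 (44.4 to 53.3 and 95.6 to 96.8) and late neutrophil markers in 11 of 12 (1930 to 2100 and 2600 to 2750). Of early granulocyte markers 1 of 6 was called, higher, and of 8 stem and progenitor markers 3 were higher and 2 lower. The part of these cell types in these values was not tested.

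Whether the 6 h response differed with age was tested as the 8-week minus the 1-week difference, which uses 4 groups that share no array. It was negative for all 36 genes, with a median of -0.32 against 0.00 over all genes. Limma called 9 of the 36 lower and 0 higher (19 and 0 at an unadjusted p under 0.05), where 18.1% of all genes were called, 8.13% lower and 9.95% higher. The 9 are the cyclins Ccnb2 (-0.49 ± 0.11, adjusted p = 0.00793) and Ccna2, the kinases Cdk1 and Plk1, Cdc25c (-0.57 ± 0.13, adjusted p = 0.00682), Espl1 (-0.62 ± 0.15, adjusted p = 0.0116), Kif11, Ckap2 (-0.53 ± 0.12, adjusted p = 0.00628) and Birc5 (-0.27 ± 0.09, adjusted p = 0.0499). Ube2c differed between ages by -0.08 ± 0.13 (adjusted p = 0.699), Pttg1 by -0.13 ± 0.12 and Bub1 by -0.10 ± 0.16 (adjusted p = 0.718). Kif2c (-0.02 ± 0.13, adjusted p = 0.933), Ccnb1 (-0.17 ± 0.12, adjusted p = 0.365) and Cenpa (-0.06 ± 0.20, adjusted p = 0.863) were likewise not called. Without 8-week replicate 3 at 6 h 18 genes were called, without 1-week control replicate 3 14, and without 1-week replicate 1 at 6 h 5, all lower. Without 1-week control replicate 2 there were 6, and likewise 6 without 8-week replicate 1 at 6 h. Ccnb2, Ccna2, Cdc25c, Espl1 and Ckap2 kept their calls whichever array was left out, and with normexp correction 0 were called. In the same test erythroid markers were called lower in 2 of 13 (all 13 negative, median -0.28), early granulocyte markers higher in 3 of 6 and macrophage markers higher in 9 of 10 (median 1.42). Their part in the age difference was not tested.

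**Figure D3:**
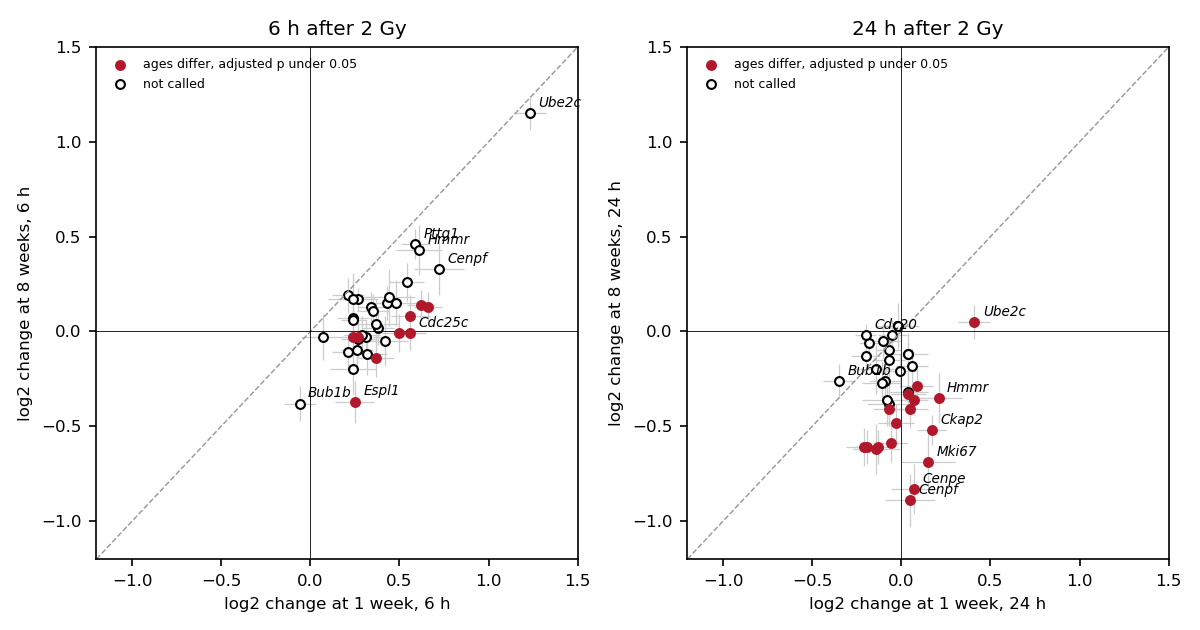
Log2 change after 2 Gy at 1 week (horizontal) and at 8 weeks (vertical) for the 36 mitosis genes at 6 h (left) and 24 h (right), with standard errors as grey bars and the line of equality dashed. Filled points are genes whose change differed between ages (9 at 6 h, 17 at 24 h). At 6 h all points lie below the line, with Ube2c near it.

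At 24 h few of these genes were called in 1-week mice. Ube2c was again called higher (0.41 ± 0.09, 1.33-fold, adjusted p = 0.00211), and Bub1b, Cdc20 and the mitotic kinase Plk1 were lower, so that 1 gene was called higher and 3 lower. Among all genes tested 35.6% were called, 17.9% higher and 17.8% lower, against 4 of 36 mitosis genes. Bub1b fell by 0.35 ± 0.09 (adjusted p = 0.00617), with 1.77, 1.68 and 2.03 in controls and 1.43, 1.53 and 1.47 at 24 h. Cdc20 fell by 0.20 ± 0.06 (adjusted p = 0.0109), and Plk1 by 0.18 ± 0.06 (adjusted p = 0.0351), from 5.18, 4.99 and 5.14 to 4.97, 4.97 and 4.85. For each of these genes the arrays of the groups were separate.

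The median of the 36 at 1 week and 24 h was -0.06 against -0.02 over all genes, and groups did not overlap for 3 genes upward and 4 downward (24% and 23.3% of all genes). In limma 0 of 10 spindle genes and 0 of 8 genes of centromere, chromosome and cleavage were called (1 and 0 at an unadjusted p under 0.05). They ran from Kif11 (-0.21 ± 0.10, adjusted p = 0.103) to Hmmr (0.21), with Prc1 at -0.01 ± 0.09 (adjusted p = 0.964), Ect2 at -0.13 ± 0.09 (adjusted p = 0.302) and Top2a at -0.03 ± 0.10 (adjusted p = 0.838). Ccnf was at -0.02 ± 0.12 (adjusted p = 0.892) and Mad2l1 at 0.04 ± 0.11 (adjusted p = 0.825). Without replicate 3 at 24 h 2 genes were called, those being Ube2c and Bub1b, which held in every fit that left out an array. With only these 2 groups in the fit 2 were called, and 6 without control replicate 2, and with normexp correction 0. Erythroid markers were called higher in 7 of 13 (summed level 907 to 945 in controls and 1200 to 1240 at 24 h). Macrophage markers were higher in 9 of 10 (29.3 to 32.9 and 60.3 to 64) and late neutrophil markers in 12 of 12 (1130 to 1290 and 1730 to 1890). B-cell precursor markers were lower in 11 of 12 (320 to 363 and 89.6 to 97.1). Early granulocyte markers were lower in 3 of 6, and stem and progenitor markers in 5 of 8. The part of these cell types in these values was not tested.

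At 24 h in 8-week mice, 22 of the 36 genes were called lower and 0 higher by limma (23 and 0 at an unadjusted p under 0.05). Among all genes tested 57.3% were called, 20% lower and 37.3% higher. The median was -0.31 against 0.11 over all genes, and for 27 genes all 24 h arrays lay below all controls, against 25.2% of all genes. The calls took in 5 of 10 cyclins and kinases, 4 of 8 checkpoint and anaphase genes, 6 of 10 spindle genes and 7 of 8 genes of centromere, chromosome and cleavage.

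The largest falls were at the kinetochore and on the chromosome. Cenpf fell by 0.89 ± 0.14 on the log2 scale (adjusted p = 5.49e-05) and Cenpe, the kinesin of the kinetochore, by 0.83 ± 0.13 (adjusted p = 5.49e-05). Cenpe read 4.72, 4.32 and 4.71 in the 8-week controls and 3.90, 3.56 and 3.80 at 24 h. Mki67, the proliferation antigen Ki-67 that coats mitotic chromosomes, read 6.53, 6.27 and 6.67 in controls and 5.95, 5.57 and 5.88 at 24 h, a fall of 0.69 ± 0.15 (adjusted p = 0.000834). In both genes every 24 h array was below every control. Ect2 fell by 0.61 ± 0.09 (adjusted p = 3.14e-05), Anln by 0.62, Top2a by 0.48 and Cenpa by 0.36, while Birc5 was not called (-0.12 ± 0.06, adjusted p = 0.134).

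Among cyclins and kinases Nek2, a centrosome kinase, fell by 0.61 ± 0.09 (adjusted p = 3.47e-05), from 2.05, 2.06 and 2.16 to 1.53, 1.55 and 1.36. Ccna2 fell by 0.59 ± 0.10 (adjusted p = 7.53e-05) and Ccnb2 by 0.36 ± 0.08. Plk1 differed by -0.06, Cdk1 by -0.12, Ccnb1 by -0.15 ± 0.09 (adjusted p = 0.161) and Ccnf by 0.03 ± 0.12 (adjusted p = 0.854), and none of these passed. The value of Ccnb1 is that of its brightest probe, and its other probes differed by -0.51 and -0.41, without a test of their own. Of the spindle genes, Ckap2 fell by 0.52 ± 0.08 (adjusted p = 5.7e-05) and Kif11, the kinesin that pushes the spindle poles apart, by 0.61 ± 0.10 (adjusted p = 6.71e-05), while Kif2c did not pass (-0.05 ± 0.09, adjusted p = 0.616). The fall of Kif11 rests on its brightest probe, and another probe differed by -0.03. Bub1 fell by 0.38 ± 0.12 with its brightest probe (adjusted p = 0.0111; a dimmer probe read 0.25), while Ube2c, Pttg1 and Cdc20 were not called, with Ube2c at 0.05 ± 0.09, Pttg1 at -0.02 ± 0.08 (adjusted p = 0.885) and Cdc20 at -0.02 ± 0.06.

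Of the 22 calls 13 held whichever array was left out, and Cdc25c, Aurkb, Bub1, Bub1b, Mad2l1, Espl1, Kif4, Hmmr and Cenpa lost theirs in at least 1 such fit. With normexp correction 17 were called. On the slide shared by both groups, with 1 array of each, 33 of 36 differences were negative (median -0.38, against 0.12 over all genes). Erythroid markers were called lower in 9 of 13 and higher in 1 (mean log2 level 4.30 to 4.36 in controls and 3.97 to 4.09 at 24 h; summed level 730 to 743 and 737 to 860). B-cell precursor markers were lower in 12 of 12 (summed level 353 to 386 against 95 to 104). Early granulocyte markers rose in 6 of 6 (502 to 525 against 803 to 928), late neutrophil markers in 12 of 12 (1930 to 2100 against 2650 to 2810) and macrophage markers in 10 of 10 (44.4 to 53.3 against 155 to 169). Of 8 stem and progenitor markers 3 were called higher and 3 lower. The part of these cell types in the fall of the mitosis genes was not tested.

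**Figure D4:**
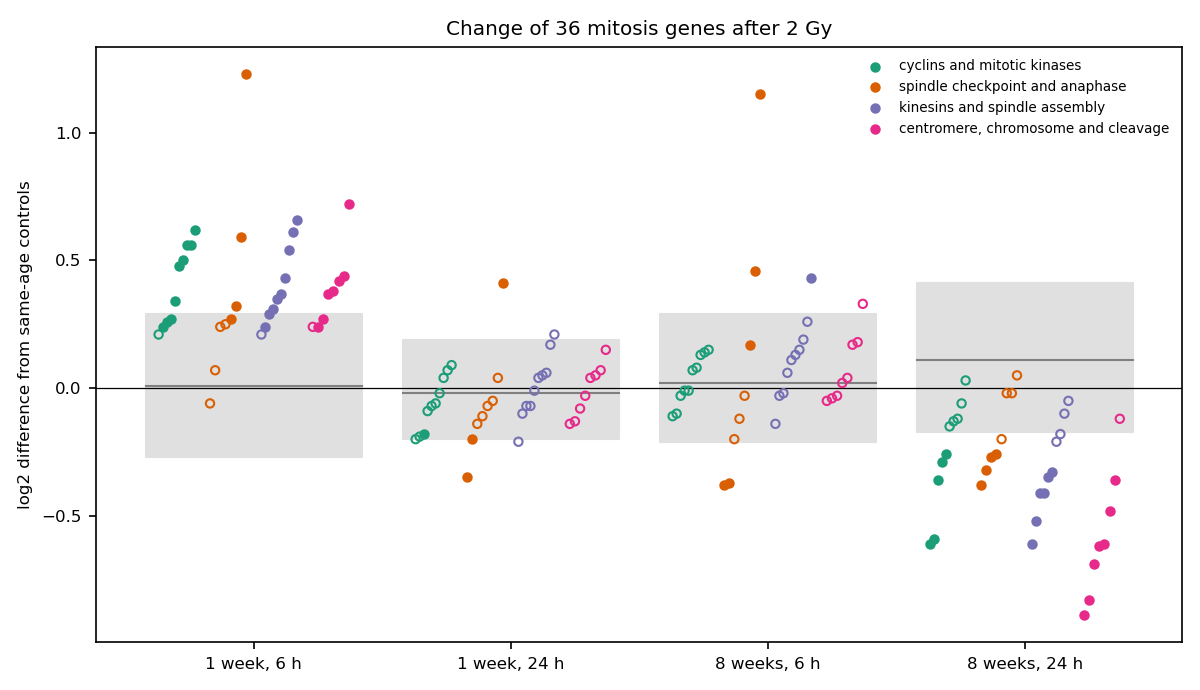
Log2 difference from same-age controls for each of the 36 mitosis genes, coloured by role, in the 4 irradiated groups (filled, adjusted p under 0.05; open, not called). Grey boxes give the interquartile range and grey lines the median of all 11884 genes. All points but Bub1b lie above the grey line at 1 week and 6 h, most lie within the box at 1 week and 24 h, and all lie below the grey line at 8 weeks and 24 h.

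The 24 h response was lower at 8 weeks than at 1 week for 17 of the 36 genes and higher for 0 in limma (18 and 1 at an unadjusted p under 0.05). Of all genes 41.4% were called, 13.5% lower and 27.9% higher. The median was -0.32 for the 36 genes and 0.11 for all genes. Cenpf (-0.94 ± 0.20, adjusted p = 0.00146), Cenpe (-0.90 ± 0.19, adjusted p = 0.00121), Mki67 (-0.84 ± 0.21, adjusted p = 0.00457) and Ckap2 (-0.69 ± 0.12, adjusted p = 0.00026) differed most. Ccnb2 (-0.44 ± 0.11, adjusted p = 0.00562), Ccna2 (-0.53 ± 0.14, adjusted p = 0.006) and Ube2c (-0.35 ± 0.13, adjusted p = 0.0347) were among the others, while Ccnf (0.05 ± 0.16, adjusted p = 0.824), Pttg1 (0.04 ± 0.12, adjusted p = 0.823) and Kif20a (-0.03 ± 0.10, adjusted p = 0.804) were not called. Without 1 of 4 arrays (1-week control replicate 1, 1-week replicate 2 at 24 h, or 8-week control replicate 1 or 3) the count was 10 or 11, with 1 of the 10 called higher without 8-week control replicate 1, and 7 genes (Ccnb2, Ccna2, Ckap2, Cenpe, Cenpf, Mki67 and Ect2) kept their calls in all fits that left out an array. Without 1-week control replicate 2 there were 13 (12 lower, 1 higher). With slide as a block 11 were called, and with normexp correction 0. In the same test erythroid markers were called lower in 8 of 13 (all 13 negative, median -0.63), early granulocyte markers higher in 6 of 6 (median 0.98) and macrophage markers higher in 9 of 10 (median 0.93). Their part in this age difference was not tested.

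The genes that rose at 1 week and 6 h and those that fell at 8 weeks and 24 h were compared, since these comparisons share no array. In all, 17 genes are in both sets. Of the 29 that rose 58.6% also fell at 8 weeks and 24 h, against 61.1% of all 36, and of the 22 that fell 77.3% had risen at 1 week and 6 h, against 80.6% of all 36, so membership of both sets was no more common than the separate shares. The 12 that rose at 1 week without a called fall at 8 weeks are Ccnb1, Ccnf, Cdk1, Plk1, Aurka, Cdc20, Ube2c, Pttg1, Kif20a, Tpx2, Prc1 and Birc5. For Ccnb1 this holds for the brightest probe, while its other probes differed by -0.51 and -0.41 at 8 weeks and 24 h. The 5 that fell at 8 weeks without a called rise at 1 week are Aurkb, Bub1, Bub1b, Espl1 and Cenpa.

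Unirradiated mice of the 2 ages also differed. Of the 36 genes 21 were called lower at 8 weeks and 0 higher in limma (24 and 0 at an unadjusted p under 0.05), where 64.7% of all genes were called, 37.2% lower and 27.5% higher. The median was -0.31 against -0.08 over all genes, and 21 genes did not overlap between ages (39.8% of all genes lower without overlap). All 10 cyclins and mitotic kinases were lower, as were 5 of 8 checkpoint and anaphase genes and 5 of 10 spindle genes, but 1 of 8 genes of centromere, chromosome and cleavage.

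Ccnb1 was lower by 0.62 log2 at 8 weeks (-0.62 ± 0.09, 0.651-fold, adjusted p = 1.02e-05) and Ccnf, the F-box cyclin, differed by -0.77 ± 0.12 (0.588-fold, adjusted p = 2.32e-05). Ccnf read 2.08, 1.80 and 2.03 at 1 week and 1.26, 1.02 and 1.33 at 8 weeks. Nek2 had the weakest call of this role group (-0.31 ± 0.09, adjusted p = 0.00846) and overlapped between ages. Cdc20 (-0.42 ± 0.06, adjusted p = 6.6e-06), Kif20a (-0.40 ± 0.07, adjusted p = 7.32e-05) and Birc5 (-0.41 ± 0.06, adjusted p = 3.41e-05) had the smallest adjusted p of their role groups. Ect2 (0.00 ± 0.09, adjusted p = 0.976), Kif11 (-0.02 ± 0.10, adjusted p = 0.843) and Bub1 (-0.03 ± 0.12, adjusted p = 0.842) were closest to equal.

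Counts without each array ran from 20 to 23, with 21 without 1-week control replicate 2, and with normexp correction 6 were called. On the slide that holds 1 array of each control group 35 of 36 differences were negative (median -0.41, against -0.11 over all genes). The 8-week controls also enter the comparisons at 6 h and 24 h, which are not independent of this one. Erythroid markers were lower at 8 weeks in 11 of 13 and higher in 0 (11 and 0 unadjusted; summed level 907 to 945 at 1 week and 730 to 743 at 8 weeks), early granulocyte markers higher in 6 of 6 (327 to 372 and 502 to 525) and late neutrophil markers higher in 11 of 12 (1130 to 1290 and 1930 to 2100). The part of these cell types in the age difference was not tested.

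From 6 h to 24 h the mitosis genes were lower at both ages. At 1 week 31 of 36 were called lower and 0 higher (34 and 0 at an unadjusted p under 0.05), against 17.9% and 17.7% of all genes (35.6% in all), with a median of -0.42 against -0.01. At 8 weeks 26 were called lower and 0 higher in limma (27 and 0 unadjusted), against 16.6% and 32.2% of all genes (48.8% in all), with a median of -0.36 against 0.09. These comparisons use the same irradiated arrays as those against controls. Ube2c differed by -0.83 ± 0.09 at 1 week (adjusted p = 4.38e-06) and -1.10 ± 0.09 at 8 weeks (adjusted p = 1.17e-07). Cenpf differed by -0.67 ± 0.14 (adjusted p = 0.00143) and -1.22 ± 0.14 (adjusted p = 3.16e-06), and Ckap2 by -0.49 ± 0.08 and -0.65 ± 0.08. Plk1 differed by -0.45 ± 0.06 at 1 week (adjusted p = 4e-05) and by -0.03 ± 0.06 at 8 weeks (adjusted p = 0.732). Bub1 at 1 week (-0.14 ± 0.12, adjusted p = 0.374) and Ttk at 8 weeks (0.00 ± 0.13, adjusted p = 0.996) were not called. With normexp correction 4 and 17 genes were called. Within slides, each with 1 array against 1 array, 36 of 36 were negative at 1 week (median -0.46, against -0.03 over all genes). On the 2 slides at 8 weeks 32 and 30 of 36 were negative (medians -0.22 and -0.38, against 0.06 and 0.13 over all genes). Without 8-week replicate 1 at 6 h 27 genes were called at 8 weeks, all lower. Erythroid markers were called lower in 7 of 13 at 1 week (summed level 1390 to 1550 at 6 h and 1200 to 1240 at 24 h) and in 11 of 13 at 8 weeks, with 1 higher (877 to 1050 and 737 to 860). Macrophage markers were higher in 10 of 10 at 1 week (21.4 to 25.4 and 60.3 to 64) and at 8 weeks (95.6 to 96.8 and 155 to 169), B-cell precursor markers lower in 8 and 6 of 12, and early granulocyte markers higher in 2 and 5 of 6. The part of these cell types in the difference between times was not tested.

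A further list of 72 mitosis genes, of condensins, kinetochore subunits and other spindle factors, gave 67 tested genes. At 1 week and 6 h 40 were called higher and 3 lower (median 0.31), with Sgo2a, a protector of centromeric cohesion, at 0.99 ± 0.09 (adjusted p = 1.65e-07) and Cdc25b at 0.78 ± 0.09 (adjusted p = 4.57e-06). Trip13, which takes apart the mitotic checkpoint complex, went the other way (-0.52 ± 0.05, adjusted p = 5.1e-07). At 1 week and 24 h 7 were higher and 13 lower, led by Pimreg (-1.02 ± 0.08, adjusted p = 5.05e-08). At 8 weeks 7 were higher and 12 lower at 6 h, with Cenpm (-0.54 ± 0.07, adjusted p = 1.7e-05) as the strongest call, and 1 was higher and 46 lower at 24 h (median -0.32). Aspm, a spindle pole protein, differed by -0.90 ± 0.10 there (adjusted p = 1.46e-06) and the kinetochore scaffold Knl1 by -0.92 ± 0.11 (adjusted p = 4.13e-06). In controls 38 were lower and 2 higher at 8 weeks. Of all genes tested, 25.4% were called higher and 26% lower at 1 week and 6 h, and 17.9% and 17.8% at 24 h. At 8 weeks these shares were 23.4% and 22.4% at 6 h, and 37.3% and 20% at 24 h. Between controls 37.2% of all genes were lower at 8 weeks and 27.5% higher.

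Genes of S phase gave other values. Of 34 tested, 14 were called lower and 0 higher at 1 week and 6 h in limma (16 and 0 at an unadjusted p under 0.05), 8 and 0 at 24 h (13 and 0), while at 8 weeks 31 were lower and 0 higher at 6 h (33 and 0) and 13 and 0 at 24 h (13 and 0). The medians were -0.17, -0.14, -0.39 and -0.16 in that order. Of all genes tested 26%, 17.8%, 22.4% and 20% were called lower in these comparisons. Uhrf1, which maintains DNA methylation behind the fork, fell by 0.46 ± 0.09, 0.51 ± 0.09, 0.73 ± 0.09 and 0.54 ± 0.09 (adjusted p between 7.95e-06 and 0.000322). At 8 weeks 20 S phase genes were higher at 24 h than at 6 h and 0 lower (23 and 0 unadjusted). The shares of all genes there were 32.2% and 16.6%. In controls 32 of the 34 were lower at 8 weeks and 0 higher (32 and 0 unadjusted), against 37.2% and 27.5% of all genes.

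**Figure D5:**
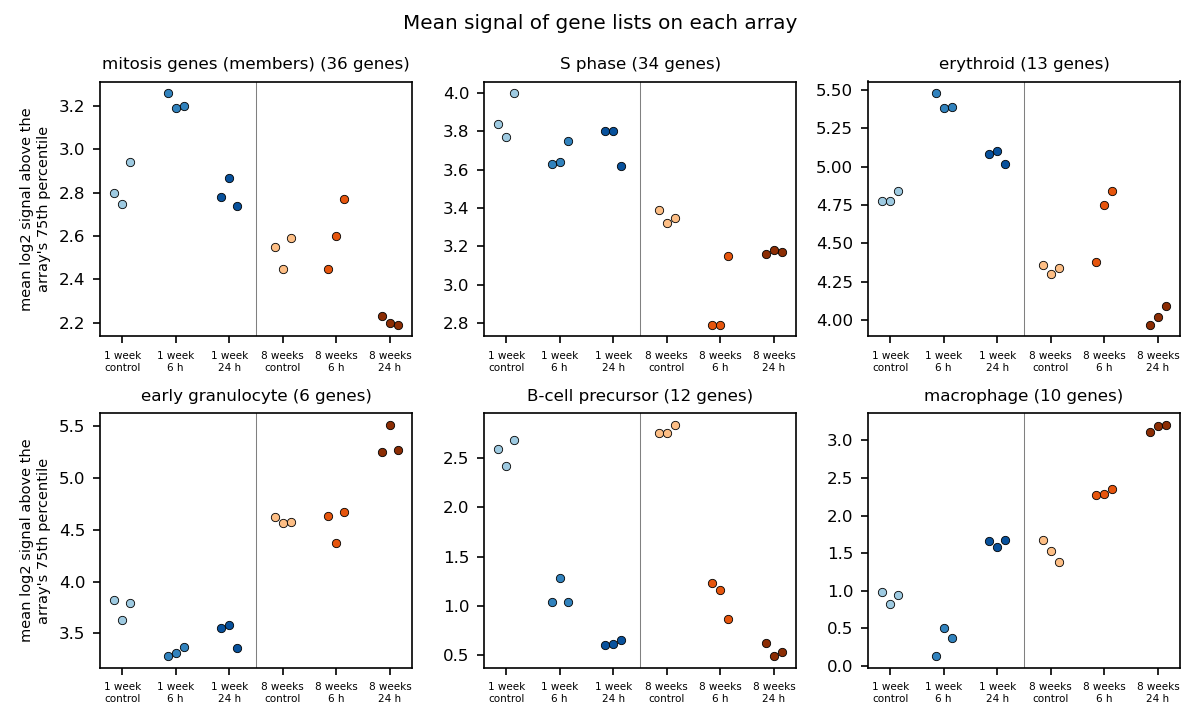
Mean log2 signal above the array's 75th percentile over the genes of 6 lists, 1 point per array (3 per group, vertical axes differ). The mitosis list and the erythroid list are both highest at 1 week and 6 h and lowest at 8 weeks and 24 h, while S phase genes are lowest at 8 weeks and 6 h, and early granulocyte and macrophage genes are highest at 8 weeks and 24 h.

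Of 20 genes that control mitosis genes at the level of transcription, Foxm1, a forkhead activator of G2 and M genes, read 1.66, 1.51 and 1.80 in the 1-week controls, 2.29, 2.10 and 2.34 at 6 h and 1.60, 1.72 and 1.64 at 24 h. In 8-week mice it read 1.28, 1.38 and 1.49, then 1.26, 1.31 and 1.45, then 1.13, 1.08 and 1.26. It rose at 1 week and 6 h (0.58 ± 0.09, adjusted p = 3.03e-05), was not called at 8 weeks and 6 h (-0.04 ± 0.09, adjusted p = 0.705), and the ages differed in this (-0.63 ± 0.12, adjusted p = 0.0026). At 24 h it was -0.01 ± 0.09 at 1 week (adjusted p = 0.953) and -0.23 ± 0.09 at 8 weeks (adjusted p = 0.0297). Mybl2 (B-Myb), the other activator, differed by -0.21 ± 0.09 at 1 week and 6 h (adjusted p = 0.0617) and fell by 0.61 ± 0.09 at 8 weeks (adjusted p = 8.07e-05), where its controls read 2.15, 2.02 and 2.12 and the 6 h arrays 1.41, 1.30 and 1.76. Rbl2, which encodes p130 of the DREAM complex, rose by 0.79 ± 0.07, 0.44 ± 0.07 and 0.77 ± 0.07 at 1 week and 6 h, 1 week and 24 h, and 8 weeks and 6 h (adjusted p between 3.02e-07 and 0.000175). At 8 weeks and 24 h it was not called higher, nor was any other gene of the list, whose highest difference there was 0.13. In the whole list 4 were higher and 3 lower at 1 week and 6 h, and 4 and 2 at 24 h. At 8 weeks 3 were higher and 9 lower at 6 h, and 0 and 13 at 24 h (0 and 14 unadjusted). The shares of all genes were 25.4% and 26%, 17.9% and 17.8%, 23.4% and 22.4%, and 37.3% and 20% in that order.

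Of 18 tested genes of the G2 checkpoint, Cdkn1a, the p21 inhibitor of cyclin-dependent kinases and a p53 target, rose in every irradiated group. It read 0.26, 0.53 and 0.07 in the 1-week controls, 3.0, 2.62 and 2.24 at 6 h and 2.83, 2.51 and 2.37 at 24 h. At 8 weeks it read -0.33, -0.46 and -0.19, then 2.49, 2.82 and 2.60, then 2.40, 2.56 and 2.44. The differences of 2.33 ± 0.16, 2.29 ± 0.16, 2.96 ± 0.16 and 2.80 ± 0.16 had adjusted p between 7.99e-10 and 2.33e-08. The age difference of the Cdkn1a response was not called at 6 h (0.63 ± 0.23, adjusted p = 0.0682) or at 24 h (0.51 ± 0.23, adjusted p = 0.0855). Chek1, the kinase that restrains Cdc25, fell by 0.48 ± 0.12 at 1 week and 6 h (adjusted p = 0.00359) and by 0.62 ± 0.12 at 8 weeks and 6 h (adjusted p = 0.000705). Wee1 was called in no irradiated group (-0.31 to -0.14, adjusted p between 0.187 and 0.546). Its signal was low, from -3.81 to -3.03 over the arrays. In the list 8 genes were higher and 4 lower at 1 week and 6 h, and 8 and 2 at 24 h. At 8 weeks 6 were higher and 4 lower at 6 h, and 7 and 6 at 24 h. The shares of all genes were 25.4% and 26%, 17.9% and 17.8%, 23.4% and 22.4%, and 37.3% and 20% in that order.

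Where a gene has several probes, the brightest was used, and some others gave different values. At 8 weeks and 24 h the 2 other probes of Ccnb1 read -0.51 and -0.41 where the brightest read -0.15. For Kif11 another probe differed by -0.03 where the brightest differed by -0.61, and at 1 week and 6 h by 0.85 against 0.37. The dimmer probe of Bub1 differed by 0.25 at 8 weeks and 24 h, opposite to the -0.38 of the brightest. At 1 week and 24 h it differed by 0.47 against -0.07. At 1 week and 6 h another probe of Ect2 differed by 1.08 against 0.38. For Cdc25c, Cenpe, Cenpf, Ckap2, Kif4, Kif23, Mki67, Top2a and Anln the further probes had the sign of the brightest at 1 week and 6 h and at 8 weeks and 24 h. In the other comparisons with controls some of them did not. The further probe of Cdc25c differed by -0.17 against 0.09 at 1 week and 24 h, and by 0.20 against -0.01 at 8 weeks and 6 h.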

How the data were processed

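Each of 18 Agilent 1-colour arrays measured Cy3-labelled total RNA from the marrow of a female C3H mouse, and samples were grouped by their titles. The deposited array files hold intensity per spot (processed, median and background signals) and flags, written by Feature Extraction, which subtracts background but does not scale arrays. The version is 9.5.1.1 per the file headers and 11.5.1 per the submitters' processing notes. The deposited value table holds log2 values that the authors scaled and centred per probe, and differences in it follow those of the array files (r 0.9998 to 0.9999 on 41174 matched probes of 41252).

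From these, control and outlier spots (77 to 123 per array) were left out, log2 processed signal was averaged per probe, and the array's 75th percentile (raw 480 to 755.8) was subtracted. Between 51.1 and 62.1% of probes were well above background per array, and the number of arrays limits the precision. RefSeq accessions gave 24844 of 41174 probes a symbol (GRCm38.p6 table), and the brightest probe stood for a gene. Genes with at least 0.5 of spots well above background on all 3 arrays of 1 or more groups were tested. Limma 3.58.1 (R 4.3.3, data.table package version 1.17.8) fitted 1 mean per group with an intensity trend (12 residual and 4.41 prior degrees of freedom) for 9 comparisons, two-sided, which was tested on simulated data. P-values set a difference against the spread of arrays within groups, pooled over the 6 groups and moderated over all genes tested. That spread holds differences between mice as well as between hybridisations. The members, roles, lists and tests were chosen with earlier results of these data known.

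Genes given array by array are, in each role group, the 3 with the largest and the 1 with the smallest F over the 6 groups, and Ccnb1. Values with error and adjusted p are given for the smallest 1 or 2 and the largest p of each role group in a comparison, for up to 4 called genes of each other list, and always for Foxm1, Mybl2, Cdkn1a, Wee1 and Chek1. Further members named as examples were chosen after their values were seen. Replicate numbers were checked for pairing: among 45 same-numbered pairs r ran from -0.27 to 0.32 (median -0.015), so no block was used. Alternatives tried were background correction, scaling, the value table, filters on dim genes, all probes, no trend, slide and replicate blocks, fewer groups and leaving out each array. Mean signals were not among the columns used here, so normexp (offset 50) took median signals. Probe-level names from the array files were not used here.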

Additional observations from a re-analysis of the deposited data

Results flagged for a closer look

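The response of 26 gene and time pairs differed between the ages in the test of that difference (8 weeks minus 1 week, limma, adjusted p under 0.05). At 6 h these were, on the log2 scale, Ccnb2 (-0.49), Ccna2 (-0.51), Cdk1 (-0.49), Cdc25c (-0.57) and Plk1 (-0.30) among cyclins and kinases, Espl1 (-0.62), Kif11 (-0.50), Ckap2 (-0.53) and Birc5 (-0.27). At 24 h they were Ccnb2 (-0.44), Ccna2 (-0.53), Cdc25c (-0.39), Nek2 (-0.42), Ube2c (-0.35), Kif11 (-0.39), Kif23 (-0.34), Kif4 (-0.37), Nusap1 (-0.46), Hmmr (-0.55) and Ckap2 (-0.69), and of centromere, chromosome and cleavage Cenpe (-0.90), Cenpf (-0.94), Top2a (-0.45), Mki67 (-0.84), Ect2 (-0.48) and Anln (-0.48). Ccnb2, Ccna2, Cdc25c, Kif11 and Ckap2 are in both sets, which share the controls of both ages. Of these, Kif11 at both times and Cdc25c at 24 h lost their calls in at least 1 fit that left out an array. At 24 h another probe of Kif11 differed by 0.05 at 1 week and -0.03 at 8 weeks, against -0.21 and -0.61 for the brightest. The part of cell composition in these differences was not tested.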

How the results depend on the processing

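Counts of called mitosis genes are given in the order 1 week at 6 h and 24 h, 8 weeks at 6 h and 24 h, 8 against 1 week in controls, age difference at 6 h and at 24 h, and 24 h against 6 h at 1 and at 8 weeks (29, 4, 6, 22, 21, 9, 17, 31 and 26). Normexp on median signals changed them most, to 3, 0, 1, 17, 6, 0, 0, 4 and 17, with a median standard error of 0.23 in place of 0.09, and with 1354, 683, 793 and 3509 of all genes called in the first 4 comparisons in place of 6110, 4234, 5438 and 6807. Under it Hmmr (0.07) and Anln (0.26) at 8 weeks and 24 h, Anln in the age difference at 24 h (0.36) and Anln in 24 h against 6 h at 8 weeks (0.07) changed sign. With the mean of all probes the age difference of Cdk1 at 6 h was 0.02. Its other probe, well above background on 3 arrays, read 0.33 at 1 week and 0.84 at 8 weeks, and the cause was not tested. With slide as a block the age difference at 24 h had 11 calls, and with only the groups compared in the fit 1 week at 24 h had 2. Quantile scaling, the 75th percentile of bright probes, the authors' value table, both filters, all probes and no trend gave counts within 1.5 times the main ones. Leaving out 1 array gave 23 to 31, 2 to 6, 4 to 13, 15 to 21, 20 to 23, 5 to 18, 10 to 17, 24 to 30 and 19 to 27. Calls kept under all settings numbered 3, 0, 1, 11, 6, 0, 0, 4 and 15. Replicate numbers did not pair the arrays (9 of 45 same-numbered pairs had r over 0.1, and 9 of 18 arrays correlated best with their own number), and the replicate block gave 31, 4, 6, 22, 21, 9, 15, 33 and 25. Naming probes from the array files was not run. The number of arrays, 3 per group, limits the precision, and the brightest probes of these genes were well above background on all 18 arrays.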
